A study of Mus musculus with 12 samples.

Results

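Of the 18194 mouse genes that a probe set of the Affymetrix array reads under 1 gene symbol alone, 43 were listed as enzymes and factors that copy DNA in S phase, and these 43 are described in adipocytes made from 2 mouse lines with more or less of the noncoding RNA SRA. The list goes by function, is not complete, and was drawn up with earlier results of these data known. They comprise 10 genes of the replicative helicase, 4 of origin licensing, 6 of the polymerases and primase, 8 of the clamp, clamp loader and lagging strand, 2 of single-strand binding, 5 of nucleotide supply, 6 of the fork checkpoint and fork repair, and 2 of new chromatin. Each gene was read from the probe set with its highest mean over all 12 arrays, and 8 of the 43 have only 1 probe set.

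A cell that is about to divide first licenses its origins: the origin recognition complex, with Cdc6 and Cdt1, loads the MCM helicase ring onto DNA. In S phase Cdc45 and the GINS complex turn the ring into a running helicase, polymerase alpha with primase lays down primers, and polymerases delta and epsilon extend them around the sliding clamp PCNA while ribonucleotide reductase and thymidine kinase feed the deoxynucleotide pool. Most of these genes are switched on by E2F factors when a cell passes from G1 into S phase and are low in resting cells. Preadipocytes in culture are known to re-enter the cell cycle after the adipogenic hormone cocktail and to leave it again as they mature.

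SRA is the steroid receptor RNA activator, and the study asked what its gain or loss does to gene expression in adipocytes. ST2 cells, a stromal line from mouse bone marrow whose strain the labels give as BC8, carried either the pMSCV retrovirus with a human SRA cDNA (ST2 SRA, n = 3) or the empty vector (ST2 control, n = 3), and puromycin selected the infected cells. 3T3-L1 cells, an embryonic fibroblast line labelled Swiss albino, carried a retroviral short hairpin against mouse SRA (shSRA, n = 3) or a control retrovirus (shControl, n = 3), which the labels call empty vector and the study's methods a control hairpin. All 4 groups received the cocktail named MDIT, whose parts are dexamethasone at 1 µM, insulin at 0.167 µM, troglitazone at 5 µM and methylisobutylxanthine at 0.5 mM. The ST2 RNA is from day 4 and the 3T3-L1 RNA from day 8. The 2 lines thus also differ in day and vector, and these cannot be told apart when one line is set against the other. The labels call all replicates biological.

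The arrays behind these values had no missing data. Adipoq, the adipocyte hormone adiponectin, lay between 14.29 and 14.82 on the log2 scale on all 12 arrays, whereas Ptprc, the pan-leukocyte antigen CD45, lay between 3.89 and 4.27. Ptprc was the dimmest of 9 macrophage and blood cell markers. Others were brighter, such as Cd68 (6.35 to 8.74) and Cd3e (7.20 to 7.79). The summed linear signal of the 9 ranged from 1043 to 1199 in ST2 control and from 1110 to 1213 in ST2 SRA. It ranged from 761 to 975 in shControl and from 766 to 928 in shSRA. ST2 control replicate 2 stood apart: its median deviation from the mean of the other ST2 control arrays over bright probe sets was -0.43, and it was the lowest of the ST2 control arrays for 39 of the 43 genes. Sra1 itself fell by 2.36 in shSRA (adjusted p = 5.6e-07), and its difference in ST2 SRA was 0.22 (adjusted p = 0.48), where the probe set reads the mouse transcript and so does not check a human cDNA.

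In ST2 cells with SRA overexpression, 14 of the 43 genes were lower than in ST2 control and none was higher. The fall was steepest for Mcm5, a subunit of the helicase ring (3.63-fold), Rrm2, the cell cycle subunit of ribonucleotide reductase (3.37-fold), Pclaf, a PCNA-binding factor (3.02-fold), Uhrf1, which keeps DNA methylation on newly copied DNA (2.87-fold), and Tk1, the cytosolic thymidine kinase (2.84-fold). These are differences of mean log2 values that passed an adjusted p of 0.05 in limma with Benjamini-Hochberg adjustment over all 19068 probe sets whose variance over the arrays was above 0.05, and at this threshold 5.65% of the tested probe sets were lower and 2.33% higher. The variance filter left 34 of the 43 genes in the test, 20 of which did not pass, and the 9 it removed were Mcm3, Gins2, Orc1, Pole, Rfc2, Rfc5, Rpa1, Rpa2 and Rad51ap1. The median log2 difference of the 43 genes was -0.33, against 0.06 over all 18194 genes. The difference was below 0 for 39 of the 43, as it was for 36.9% of all genes. All 3 ST2 SRA arrays lay below all 3 ST2 control arrays for 22 of the 43, 19 of them tested, and for 9.03% of the tested probe sets. In bulk RNA, fewer cells in S phase and less transcript per cell cannot be told apart.

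**Figure D1:**
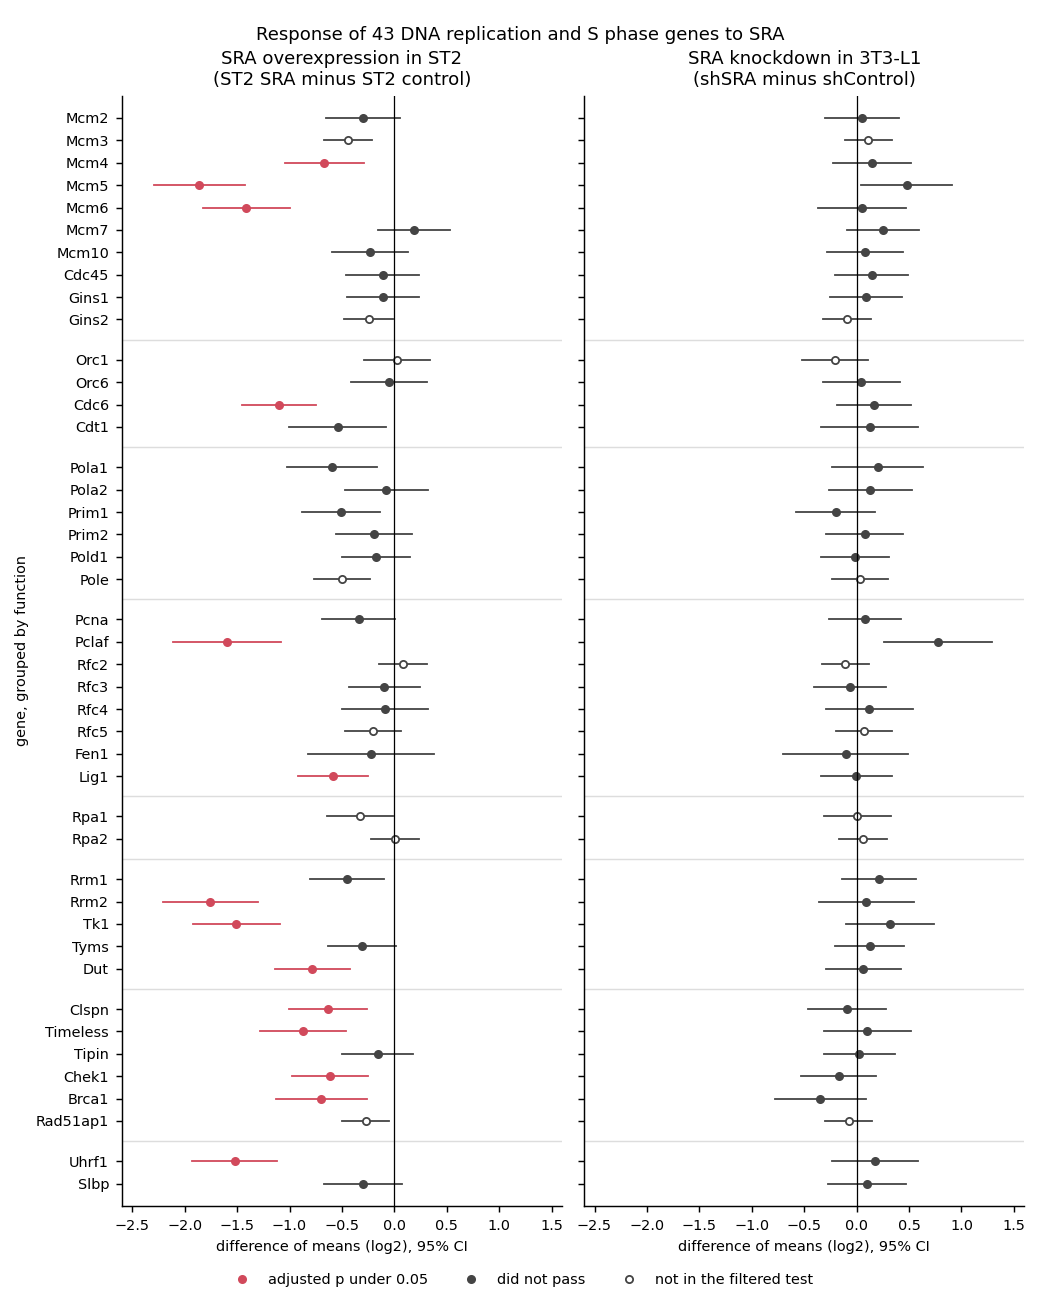
Difference of means (log2) with its 95% confidence interval for each of the 43 genes, grouped by function, in SRA overexpression (left) and SRA knockdown (right). The 14 genes in red on the left lie between -0.58 and -1.86, no gene is red on the right, and open circles mark the 9 genes that the variance filter removed, drawn from the fit without the filter.

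Within the helicase, Mcm5, Mcm6 and Mcm4 were lower with SRA, while 5 of the 8 tested genes did not pass. Mcm5 read 9.51, 8.66 and 8.83 on the ST2 control arrays and 7.37, 6.80 and 7.25 on the ST2 SRA arrays, a difference of -1.86 ± 0.21 (SE, n = 3 per group, adjusted p = 7.7e-06). No ST2 SRA array came near the lowest control array, and of the other probe sets of Mcm5 one gave -1.96 and one, dim at a mean of 4.54, gave -0.01. The mean over the 3 probe sets differed by -1.28 (adjusted p = 1.3e-04). Mcm6, another subunit of the ring, read 10.16, 9.36 and 9.55 in ST2 control and 8.36, 8.01 and 8.47 in ST2 SRA, a difference of -1.41 ± 0.20 (SE, adjusted p = 9.8e-05). Mcm4 read 8.99, 8.23 and 8.66 against 7.94, 7.92 and 8.01, a difference of -0.67 ± 0.18 (SE, adjusted p = 0.023). Its control arrays were more spread than its ST2 SRA arrays, and the groups did not overlap. Mcm3 read 8.07, 8.31 and 8.22 in ST2 control and 7.73, 7.74 and 7.80 in ST2 SRA, a difference of -0.44. The probe set used for Mcm3 fell short of the variance filter with a variance of 0.047, and without the filter its adjusted p was 0.035. Mcm3 also passed as lower with its probe set of highest variance and with the mean over its probe sets. Its lowest difference over the alternative settings was -0.79. The study lists Mcm3 among the genes lower with SRA overexpression, with a larger fall than these. The remaining 6 helicase genes, Mcm2, Mcm7, Mcm10, Cdc45, Gins1 and Gins2, had differences between -0.30 and 0.18, and Mcm7 was the only helicase gene above 0.

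Origin licensing split by gene. Cdc6, the loading ATPase that is made afresh in each cycle, read 5.93, 5.74 and 6.22 in ST2 control and 4.90, 4.91 and 4.78 in ST2 SRA. This 2.15-fold fall (-1.10 ± 0.17, SE, adjusted p = 2.2e-04) left the ST2 SRA arrays within 0.13 of each other, in the dim range of the array. Cdt1, its partner in loading, read 9.60, 9.20 and 9.78 against 8.86, 8.998 and 9.12, and its difference of -0.54 ± 0.22 (SE) did not pass (adjusted p = 0.15), although the groups did not overlap. The study lists Cdt1 among the genes lower with SRA overexpression, with a larger fall than the difference given here. Orc6, a subunit of the origin recognition complex, read 8.94, 8.22 and 8.56 against 8.48, 8.50 and 8.58, a difference of -0.05. Orc1 differed by 0.02 and was not in the filtered test.

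None of the 6 polymerase and primase genes passed. Pola1, the catalytic subunit of polymerase alpha, read 8.31, 7.32 and 8.10 in ST2 control and 7.21, 7.23 and 7.50 in ST2 SRA, a difference of -0.60 ± 0.21 (SE, adjusted p = 0.087). ST2 control replicate 2 alone overlapped the ST2 SRA arrays, and without it Pola1 passed. Prim1, the catalytic primase subunit, read 9.04, 8.37 and 8.77 against 8.26, 8.17 and 8.23, a difference of -0.51 ± 0.18 (SE, adjusted p = 0.093), and it too passed without that array. Pole, the catalytic subunit of polymerase epsilon, read 6.93, 6.87 and 6.73 against 6.34, 6.30 and 6.41, a difference of -0.50 from a probe set just under the variance filter, with an adjusted p of 0.043 without the filter. Pola2, Prim2 and Pold1 had differences between -0.19 and -0.08.

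Among the genes of the clamp, clamp loader and lagging strand, Pclaf and Lig1 were lower and no subunit of the clamp loader passed. Pclaf, also known as PAF15, binds the clamp at forks, and it read 9.77, 8.81 and 9.06 in ST2 control and 7.99, 7.20 and 7.67 in ST2 SRA, a difference of -1.60 ± 0.25 (SE, adjusted p = 2.2e-04). This fall rests on 1 probe set of 3: the others, with means of 4.89 and 4.10 over all arrays, differed by 0.27 and -0.17, and the mean over the 3 by -0.50 (adjusted p = 0.021). Lig1, the ligase that joins Okazaki fragments, read 8.52, 8.21 and 8.53 against 7.73, 7.75 and 8.04, a difference of -0.58 ± 0.16 (SE, adjusted p = 0.028). The clamp itself, Pcna, was bright on every array, at 12.82, 12.32 and 12.77 against 12.24, 12.22 and 12.42, and its difference of -0.34 ± 0.17 (SE) did not pass (adjusted p = 0.23). Rfc2, Rfc3, Rfc4 and Rfc5, which open and load the clamp, lay between -0.20 and 0.08. Fen1, the flap endonuclease, had the widest spread of any of the 43 in ST2 control, at 10.95, 12.59 and 11.26, and replicate 2 was the highest control array only for Fen1 and Mcm3. Fen1 is singled out here after its values were seen. The single-strand binding subunits Rpa1 and Rpa2 were both outside the filtered test, with differences of -0.33 and 0.01. Rpa1 read 11.30, 10.62 and 11.14 against 10.72, 10.58 and 10.79, and Rpa2 read 7.99, 7.81 and 8.16 against 7.96, 8.00 and 8.02. Both pairs of groups overlapped.

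All 5 nucleotide supply genes had ST2 SRA arrays below every ST2 control array, and Rrm2, Tk1 and Dut passed the test. Rrm2 read 9.53, 8.76 and 8.85 in ST2 control and 7.60, 6.90 and 7.39 in ST2 SRA, a difference of -1.75 ± 0.22 (SE, adjusted p = 2.3e-05). Tk1 read 9.11, 8.70 and 8.88 against 7.63, 7.24 and 7.30, a difference of -1.51 ± 0.20 (SE, adjusted p = 5.1e-05). Both dropped by more than 1 unit on every pairing of arrays. Dut, the dUTPase that keeps uracil out of DNA, read 9.74, 9.35 and 9.75 against 8.84, 8.70 and 8.95, a difference of -0.78 ± 0.17 (SE, adjusted p = 0.0058). Rrm1, the large subunit that Rrm2 pairs with, differed by -0.45 (adjusted p = 0.11), and Tyms, thymidylate synthase, by -0.31 (adjusted p = 0.25).

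Of the 6 fork checkpoint and fork repair genes, Timeless, Brca1, Clspn and Chek1 were lower. Timeless, which holds the helicase and polymerases together, read 8.52, 7.72 and 8.30 in ST2 control and 7.33, 7.20 and 7.41 in ST2 SRA, a difference of -0.87 ± 0.20 (SE, adjusted p = 0.0076). Its partner Tipin differed by -0.16 and did not pass (adjusted p = 0.59). Brca1, a factor of recombination repair, read 9.61, 8.68 and 8.92 against 8.60, 8.20 and 8.31, a difference of -0.70 ± 0.21 (SE, adjusted p = 0.043). Clspn, the adaptor claspin, read 6.50, 5.73 and 6.18 against 5.49, 5.65 and 5.38, a difference of -0.63 ± 0.18 (SE, adjusted p = 0.033). Its lowest control array was 0.08 above its highest ST2 SRA array. Chek1, the checkpoint kinase that claspin helps to activate, differed by -0.61 ± 0.17 (SE, adjusted p = 0.030). With the mean over all probe sets of a gene, the calls of Brca1 (-0.53, adjusted p = 0.060), Clspn (-0.24) and Chek1 (-0.19) ended, the last pair because that mean no longer passed the variance filter. Rad51ap1, whose probe set was outside the filtered test, differed by -0.27. It passed as lower with its probe set of highest variance and with the mean over its probe sets. The lowest difference of Rad51ap1 over the alternative settings was -1.38. In the group of new chromatin, Uhrf1 read 7.97, 7.37 and 7.63 against 6.47, 5.98 and 5.96, a difference of -1.52 ± 0.19 (SE, adjusted p = 3.5e-05). Slbp, which binds the stem-loop of histone messages, read 10.37, 9.65 and 10.11 against 9.74, 9.69 and 9.81, and its difference of -0.30 did not pass (adjusted p = 0.33).

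**Figure D2:**
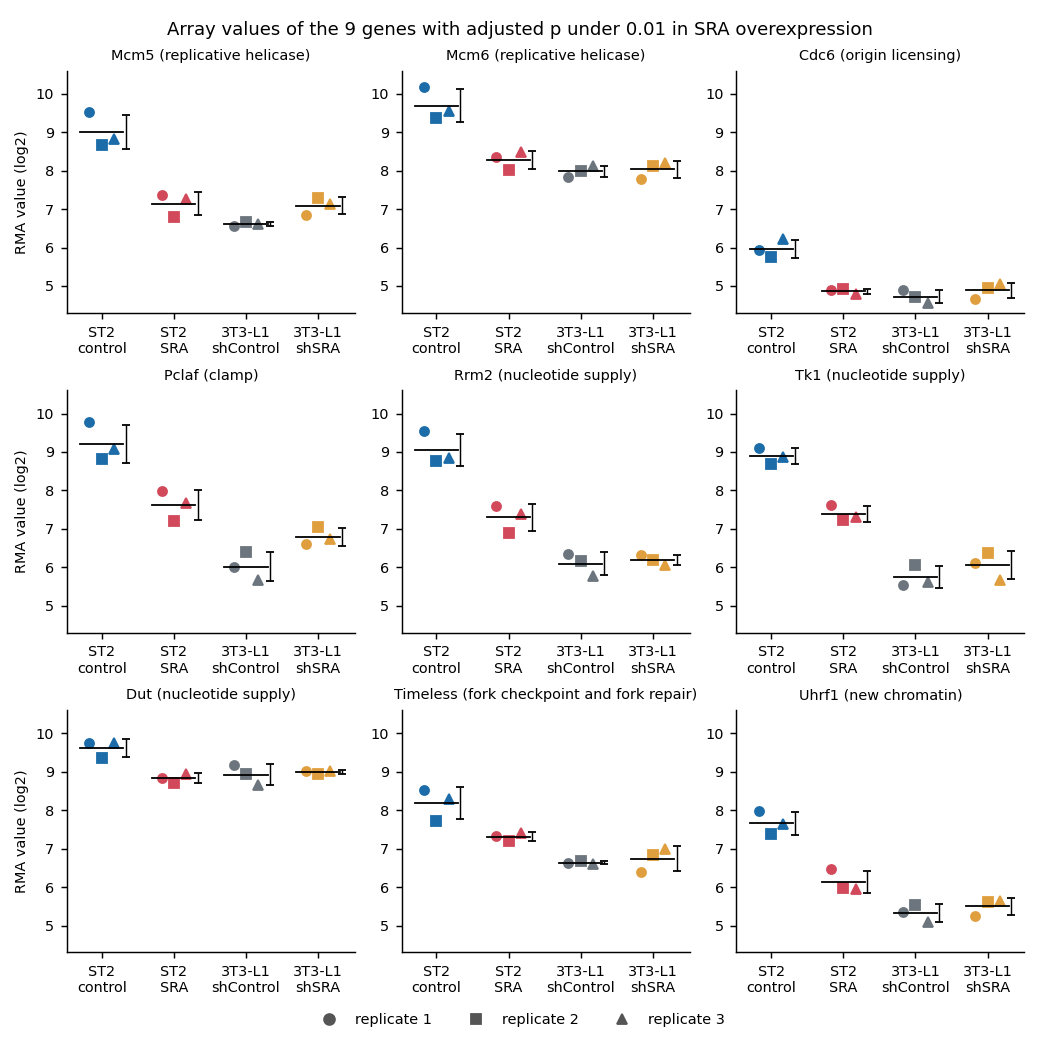
RMA values (log2) on each array for the 9 genes with an adjusted p under 0.01 in SRA overexpression, with 1 marker shape per replicate number, a line at the group mean and a bar for ± 1 SD (n = 3). In each panel the 3 ST2 SRA arrays lie below the 3 ST2 control arrays, and for Cdc6, for example, they lie between 4.78 and 4.91 against 5.74 to 6.22.

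The count of 14 leaned on single arrays. Without ST2 control replicate 1 it was 9, without ST2 control replicate 3 it was 9, without ST2 SRA replicate 2 it was 8, and without ST2 control replicate 2, the array that stood apart, it was 18. Mcm5, Mcm6, Pclaf, Rrm2, Tk1, Dut and Uhrf1 passed as lower in each of the 23 alternative settings that were run.

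Promoter letters were read for these genes because 14 of them fell together. RefSeq windows of 300 bases (build GRCm38.p6), from 250 bases before to 50 after a start, were at hand for 36 of the 43 genes, in 41 windows. On either strand, an E2F form (TTTCCCGC, TTTCGCGC, TTTGCCGC or TTTGGCGC) stood in 34.1% of these windows and in 2.26% of all 32851 windows. By gene it was in 14 of the 36, and in 7 of the 13 that were lower with SRA and 7 of the 23 others. The CCAAT box was in 61% of the windows against 37.4% of all windows. The CHR element TTTGAA was in 7.32% of the windows against 17.9% of all. The 3 genes lower with SRA that have a single window and an E2F form wholly before the start are shown first, and then the 2 of steepest fall that have a single window with no E2F form in it. Each line gives the 200 bases before the start, 5′ to 3′ on the strand of the gene, with E2F forms and CCAAT boxes on either strand in capitals.
Mcm5, chr8:75109309-75109508, plus strand: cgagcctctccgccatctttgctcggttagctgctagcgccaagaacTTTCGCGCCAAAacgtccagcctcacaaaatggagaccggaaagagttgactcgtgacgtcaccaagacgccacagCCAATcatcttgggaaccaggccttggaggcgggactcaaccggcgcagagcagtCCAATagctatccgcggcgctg
Mcm6, chr1:128359706-128359905, minus strand: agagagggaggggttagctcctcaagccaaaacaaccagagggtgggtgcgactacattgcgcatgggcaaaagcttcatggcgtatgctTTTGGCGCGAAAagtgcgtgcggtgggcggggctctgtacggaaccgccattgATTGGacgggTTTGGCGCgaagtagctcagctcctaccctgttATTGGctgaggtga
Cdc6, chr11:98907951-98908150, plus strand: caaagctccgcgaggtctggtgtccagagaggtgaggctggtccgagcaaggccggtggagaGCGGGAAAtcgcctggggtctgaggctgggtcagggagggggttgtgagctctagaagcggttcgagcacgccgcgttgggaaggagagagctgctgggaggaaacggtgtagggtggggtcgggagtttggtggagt
Rrm2, chr12:24708054-24708253, plus strand: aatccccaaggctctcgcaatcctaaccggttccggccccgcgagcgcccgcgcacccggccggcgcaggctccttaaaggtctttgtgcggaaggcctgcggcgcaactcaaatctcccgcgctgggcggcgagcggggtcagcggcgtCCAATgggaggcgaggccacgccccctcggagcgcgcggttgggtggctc
Tk1, chr11:117826015-117826214, minus strand: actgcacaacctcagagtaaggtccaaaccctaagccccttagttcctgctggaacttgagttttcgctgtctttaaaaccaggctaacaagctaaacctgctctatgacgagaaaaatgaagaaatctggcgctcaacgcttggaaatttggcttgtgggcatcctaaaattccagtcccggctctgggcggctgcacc

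Mcm5 and Mcm6 each hold a pair of E2F forms on opposite strands that overlap and so read as 1 run of capitals, Mcm6 holds a separate form nearer to the start, and Cdc6 holds a single form. Rrm2 and Tk1, with differences of -1.75 and -1.51, hold none of the E2F letters in the window, and the capitals of Rrm2 mark a CCAAT box. A match is a string of letters and not a measured binding site.

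SRA knockdown in 3T3-L1 moved none of the 43 genes past the same threshold, and 0.0734% of the tested probe sets, 14 in all, passed in either direction. The study, from its own fit of the same arrays, reports many more genes as changed by the knockdown. The reason for this gap was not tested. At an unadjusted p under 0.05, 2 of the 34 tested genes, Pclaf and Mcm5, were higher and none was lower. The share of all tested probe sets at this unadjusted threshold was not counted, so the 2 are no result about the list. The median log2 difference of the 43 was 0.08, against -0.01 over all genes, and it was above 0 for 31 of the 43, where 53.9% of all genes lay below 0. The arrays of shSRA lay above all shControl arrays for Mcm5, Mcm7, Pclaf and Rrm1, as they did for 5.49% of the tested probe sets, and below all of them for Gins2 and Chek1, as for 4.69% of the tested probe sets.

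Pclaf read 6.01, 6.39 and 5.66 in shControl and 6.60, 7.06 and 6.73 in shSRA, a difference of 0.78 ± 0.25 (SE, adjusted p = 0.81). It was higher in shSRA in each same-numbered pair, by 0.58, 0.67 and 1.07. The other probe sets of Pclaf differed by -0.08 and -0.11, and the mean over the 3 by 0.20. Same-numbered 3T3-L1 arrays deviated together. Once the replicate number entered the fit as a block in both lines, Pclaf passed as higher (adjusted p = 0.0071), which 0.325% of the tested probe sets did. A nested F classification, run as an alternative, also gave Pclaf as higher. With the block in 3T3-L1 alone, where the numbers were taken as pairs, Pclaf did not pass (adjusted p = 0.52). That fit still took its spread from all arrays, the unpaired ST2 arrays included. A paired fit of the 3T3-L1 arrays by themselves was not run. Mcm5 read 6.56, 6.67 and 6.61 in shControl and 6.85, 7.29 and 7.13 in shSRA, a difference of 0.48 ± 0.21 (SE, adjusted p = 1.00), and it was higher in all 3 pairs, by 0.29, 0.62 and 0.52. With the block in both lines its adjusted p was 0.28. The study itself reports Mcm5 as raised by the knockdown, from its own fit of the arrays and by RT-qPCR.

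Most of the genes that were lower in ST2 SRA differed by under 0.2 in the knockdown. Among the helicase genes, Mcm6 read 7.83, 8.00 and 8.11 in shControl and 7.79, 8.12 and 8.19 in shSRA. Mcm4 read 8.95, 8.67 and 8.90 against 9.10, 8.86 and 9.003, and Mcm3 7.75, 7.65 and 7.75 against 7.98, 7.72 and 7.78. The groups overlapped for all 3, although 9 of the 10 helicase genes had a difference above 0. Mcm7 had the second largest of these, 0.25 ± 0.16 (SE, adjusted p = 1.00).

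In licensing, Cdc6 read 4.90, 4.71 and 4.56 in shControl and 4.67, 4.94 and 5.05 in shSRA, and Orc6 9.88, 9.71 and 9.90 against 9.87, 9.75 and 10.01. Cdt1 read 8.78, 7.84 and 8.13 against 8.68, 8.04 and 8.40, so the spread within each group of Cdt1 was wider than the gap between the means. The polymerase and primase genes lay between -0.20 and 0.20, Prim1 having the lowest difference and Pola1 the highest. Prim1 read 8.07, 7.69 and 7.80 in shControl and 7.74, 7.45 and 7.76 in shSRA, and Pola1 7.33, 7.17 and 6.95 against 7.41, 7.38 and 7.26. Pole read 6.39, 6.76 and 6.76 against 6.48, 6.74 and 6.77. None of these groups stood clear of each other.

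Of the clamp genes, Pcna read 12.17, 11.91 and 12.03 in shControl and 12.17, 11.996 and 12.18 in shSRA, and Lig1 8.04, 7.92 and 7.79 against 8.03, 7.94 and 7.78. Lig1 had the smallest difference of all 43 genes. The single-strand binding genes were as flat, with differences of 0.01 for Rpa1 and 0.06 for Rpa2.

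All 5 nucleotide supply genes had a difference above 0 in the knockdown, the largest for Tk1, which read 5.54, 6.06 and 5.62 in shControl and 6.12, 6.38 and 5.67 in shSRA (0.32 ± 0.20, SE, adjusted p = 1.00). Rrm2 read 6.34, 6.17 and 5.77 against 6.31, 6.18 and 6.07, and Dut 9.19, 8.95 and 8.65 against 9.01, 8.93 and 9.02. The groups overlapped for all 3 of these, while the Rrm1 arrays did not (0.21 ± 0.17, SE). Uhrf1 read 5.36, 5.53 and 5.08 against 5.25, 5.60 and 5.65, and Slbp 10.13, 10.06 and 9.78 against 10.06, 10.11 and 10.11.

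The fork checkpoint and repair genes had a median of -0.08 in the knockdown. Brca1 had the largest difference below 0 of all 43, -0.35 ± 0.21 (SE, adjusted p = 1.00), with 7.69, 8.11 and 8.08 in shControl and 7.52, 7.57 and 7.76 in shSRA. In each of the 3 same-numbered pairs Brca1 was lower in shSRA, and the arrays of the groups still overlapped. Timeless read 6.62, 6.68 and 6.60 against 6.38, 6.84 and 6.997, and Clspn 5.22, 5.24 and 5.42 against 5.21, 5.11 and 5.29.

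For 29 of the 43 genes the difference was below 0 with overexpression and above 0 with knockdown, as it was for 15.6% of all genes. The responses were tested against each other directly, as the overexpression difference minus the knockdown difference, with a common spread for both lines. They differed for 7 genes, all in the lower direction, where 2.07% of the tested probe sets passed. The difference of responses was -2.37 ± 0.35 (SE, adjusted p = 5.0e-04) for Pclaf and -2.34 ± 0.29 (SE, adjusted p = 1.6e-04) for Mcm5. Rrm2 (-1.85), Tk1 (-1.82), Uhrf1 (-1.70), Mcm6 (-1.46) and Cdc6 (-1.27) followed. Each of the 7 also passed as lower in ST2 SRA, and none passed in the knockdown on its own. For the other 36 genes, tested or not, a difference between the responses was not shown. Leaving out ST2 control replicate 2 gave 15 genes, among them these 7.

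**Figure D3:**
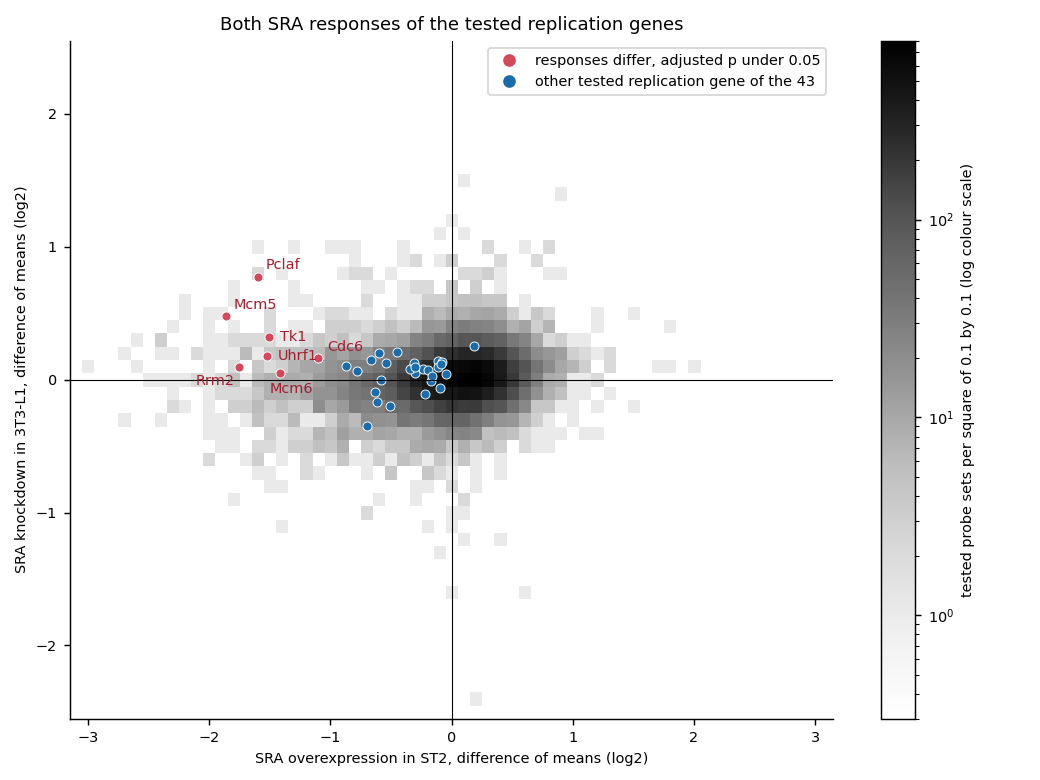
Difference of means in SRA overexpression (x axis, log2) against that in SRA knockdown (y axis, log2) for the 34 tested genes, over the number of tested probe sets per square in grey. The 7 genes in red, whose 2 responses differed, lie to the left of -1 on the x axis and above 0 on the y axis.

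The ST2 control cells had the highest mean of the 4 groups for 29 of the 43 genes, against 24.7% of all genes. The lowest mean was in shControl for 19 genes and in ST2 SRA for 15. Set against shControl, 25 genes were higher in ST2 control and 5 were lower, where 26.2% of the tested probe sets were higher and 37.4% lower. The line, the day and the vector all change in this comparison. The genes that fell with SRA were high in ST2 control: 13 of the 14 were also higher there than in shControl, Mcm4 being the exception. Since the ST2 control arrays enter both comparisons, this is a description of the same arrays.

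Pclaf was 9.15-fold higher in ST2 control than in shControl (3.19 ± 0.25, SE, adjusted p = 1.2e-09), Tk1 8.90-fold (3.15 ± 0.20, SE, adjusted p = 6.2e-11) and Rrm2 7.75-fold (2.95 ± 0.22, SE, adjusted p = 6.1e-10). Mcm5 was 5.24-fold and Uhrf1 5.04-fold higher. For Pclaf, Rrm2, Tk1, Mcm5, Mcm6 and Uhrf1 the order of the group means was ST2 control, ST2 SRA, shSRA and shControl, and the 2 lowest of these did not pass as different from each other. Cdc6 ran in nearly the same order, with means of 4.89 in shSRA and 4.86 in ST2 SRA, closer than the SD of shSRA. The ST2 SRA and shSRA arrays of Mcm5 and Mcm6 also overlapped, and ST2 SRA was not tested against shSRA for any gene. By function, all 5 nucleotide supply genes were higher in ST2 control, as were 5 of 10 helicase genes, 2 of 4 licensing genes, 4 of 6 polymerase and primase genes, 4 of 8 clamp genes, 4 of 6 fork genes and Uhrf1 of the 2 chromatin genes. Cdt1, which did not pass in ST2 SRA, was higher in ST2 control by 1.28 ± 0.22 (SE, adjusted p = 6.6e-05), and Pcna by 0.60 ± 0.17 (SE, adjusted p = 0.0044). The 5 genes that were lower in ST2 control came from several functions. Orc6 was 2.39-fold lower (-1.26 ± 0.17, SE, adjusted p = 5.1e-06), and the clamp loader subunits Rfc4 and Rfc3 were lower by 1.81-fold and 1.50-fold, the helicase cofactor Gins1 by 1.46-fold and Tipin by 1.37-fold. None of these 5 passed in ST2 SRA or in shSRA.

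**Figure D4:**
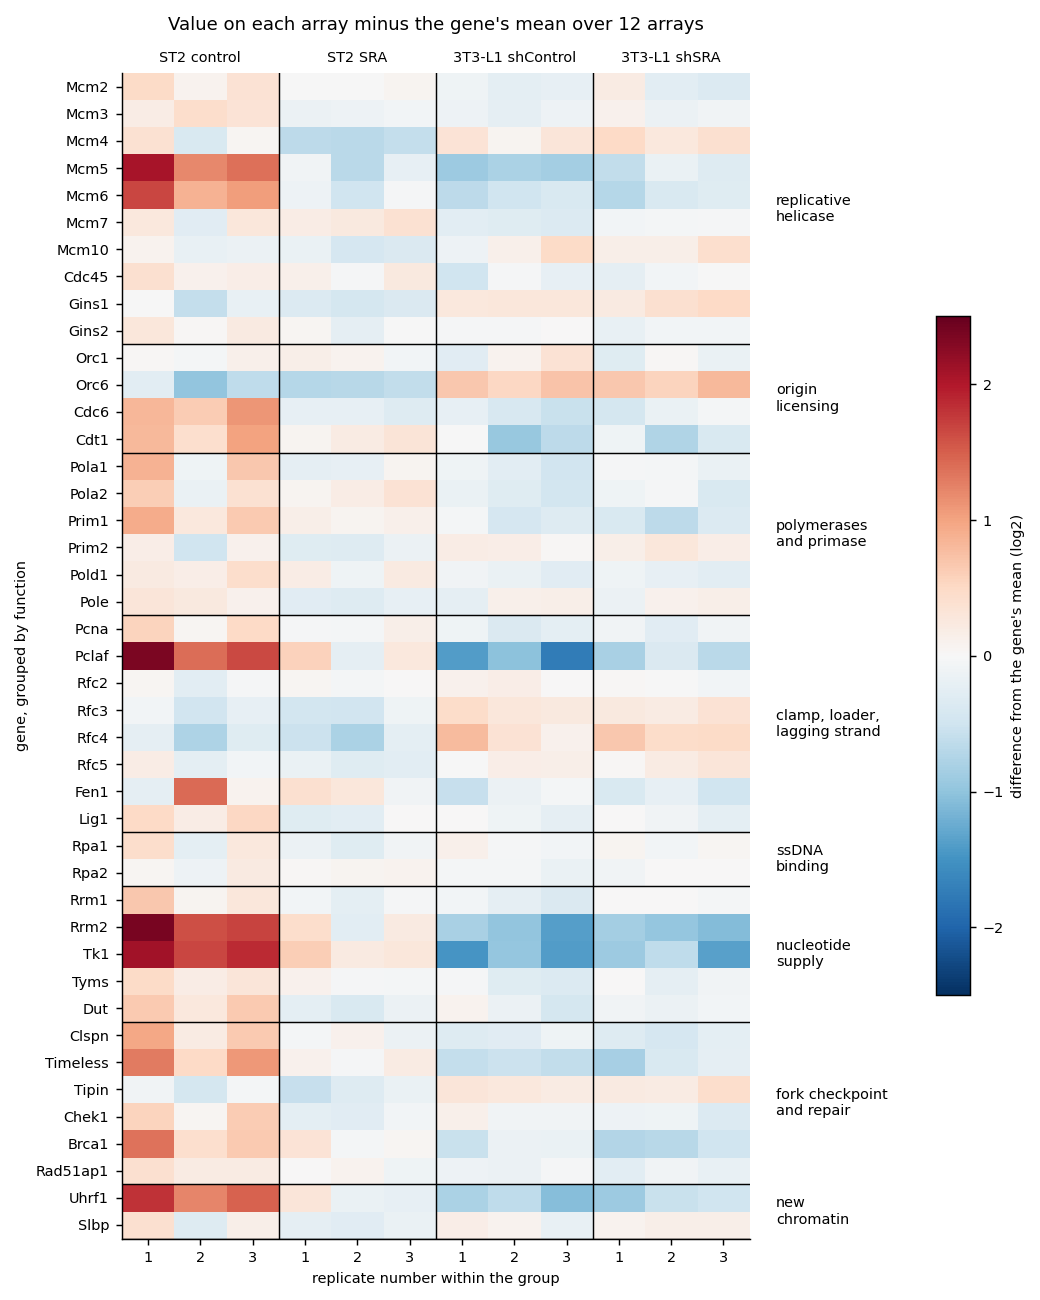
Value on each of the 12 arrays minus the mean of that gene over all arrays (log2), for the 43 genes in order of function. ST2 control is the reddest block for 29 genes, most strongly for Mcm5, Pclaf, Rrm2, Tk1 and Uhrf1, while Orc6, Rfc4, Rfc3, Gins1 and Tipin are redder in 3T3-L1.

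Other genes of the same phase did not all move. Of 53 further replication genes on the array, such as other subunits of the origin complex, the polymerases and the checkpoint clamp, 43 were tested. Among these, 4 were lower in ST2 SRA and none was higher, where 5.65% of all tested probe sets were lower and 2.33% higher. The median log2 difference of the 53 was 0.04. The 4 were Esco2, which builds sister chromatid cohesion (-1.07), Exo1, an exonuclease of repair (-0.76), Dnmt1, the maintenance DNA methyltransferase that Uhrf1 recruits (-0.64), and Pole2, a subunit of polymerase epsilon (-0.58). Among 29 regulators of the step from G1 to S phase, Ccna2, cyclin A2 (-1.97), Ccnd1, cyclin D1 (-1.53), and the repressors E2f7 (-1.30) and E2f8 (-0.66) were lower, and Rb1, the retinoblastoma protein, was the only one higher (0.62). The median of these 29, of which 21 were tested, was -0.14.

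Of 26 mitotic genes, 24 of them tested, 23 were lower in ST2 SRA and none was higher, with a median of -1.11. The kinetochore protein Cenpf had a log2 difference of -2.63, the survivin gene Birc5 of -2.25, the ubiquitin-conjugating enzyme Ube2c of -2.21 and the cyclin Ccnb2 of -2.20. Neither the 53, the 29 nor the 26 held a gene that passed with knockdown, where their medians were 0.00, 0.02 and 0.12. With the replicate block in both lines 1 mitotic gene was higher. Markers of differentiation moved in the same arrays: 2 of 10 adipocyte markers were higher in ST2 SRA, namely Slc2a4, the insulin-responsive glucose transporter (1.08), and Cd36, a fatty acid transporter (0.86), and 5 of 9 stromal and preadipocyte markers were lower, with Col3a1 at -1.95, Col1a1 at -1.47, S100a4 at -1.45 and Pdgfra at -1.25 the furthest below 0. The summed linear signal of the 10 adipocyte markers ranged from 95411 to 126558 in ST2 control and from 129840 to 135894 in ST2 SRA, and that of the 9 stromal markers from 44415 to 63198 and from 28351 to 35931. The part of these markers in the fall of the replication genes was not tested.

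**Figure D5:**
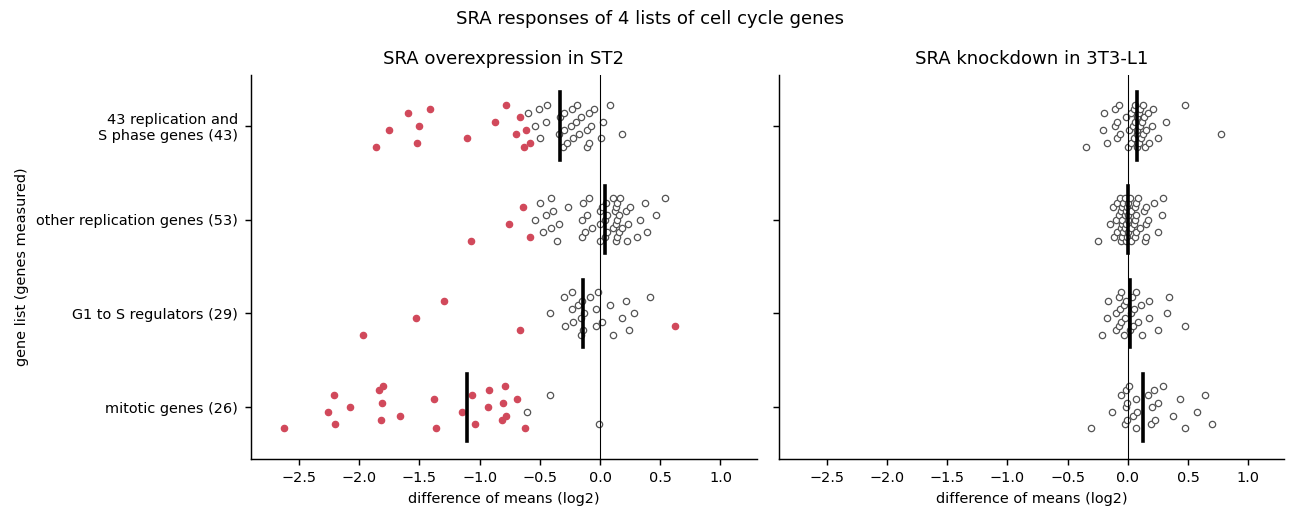
Difference of means (log2) of each measured gene in 4 lists of cell cycle genes, with SRA overexpression on the left and SRA knockdown on the right. Filled red points passed an adjusted p of 0.05, open points did not pass or were not tested, and the black bar is the median of the list, which on the left runs from 0.04 for the other replication genes over -0.33 for the 43 genes to -1.11 for the mitotic genes.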

How the data were processed

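Per the file headers, labels and methods, the authors hybridised biotinylated cRNA from 5 µg of total RNA to Affymetrix mouse arrays and deposited log2 expression values of 45101 probe sets on 12 arrays, made with RMA (background correction, quantile normalization and summary over probes). RMA compresses large ratios, and a probe set at its background cannot fall further. Of the probe sets, 34958 carry 1 gene symbol in the platform annotation, 932 several and 9211 none; only the first were given a gene name. The arrays give no read depth, and their number, 3 per group, limits the precision.

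From these values a limma model (version 3.58.1 in R 4.3.3) with 4 group means was fitted to the 19068 probe sets with a variance above 0.05 over the arrays, after the study's methods. Each contrast was adjusted by the Benjamini-Hochberg method over all of them, and a call is an adjusted p under 0.05. The contrasts were ST2 SRA minus ST2 control, shSRA minus shControl, ST2 control minus shControl, and the first minus the second. The fit was tested on simulated data with known changes. The simulated noise was independent between arrays, so array-wide deviations and pairing were not covered. Alternatives were a nested F classification of both SRA contrasts, other filters, normalizations, array weights, probe set rules, a replicate block, each line alone, and each array left out. The block was checked over the probe sets: deviations of same-numbered arrays correlated at 0.59, 0.59 and 0.38 in 3T3-L1, which was taken as pairing, and at 0.04, 0.27 and 0.53 in ST2, which was not. The replicate numbers come from the sample titles.

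The 43 genes, the further lists and the tests were chosen with earlier results of these data known. Array values are given for the 3 genes of each function with the largest difference in overexpression, for genes called in the knockdown, and for Mcm3, Mcm4, Mcm5, Mcm6, Cdt1 and Clspn, which the study names; from other lists at most 4 genes per comparison are named by size, and Rb1 beyond them. The listed genes on the array were 53 of 55 replication, 26 of 27 mitotic, 29 of 29 regulator, 10 of 12 adipocyte, 9 of 10 stromal and 9 of 10 macrophage and blood cell genes. Bright probe sets are those with a mean of at least 8.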

Additional observations from a re-analysis of the deposited data

Results flagged for a closer look

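For 7 of the 43 genes the response to SRA overexpression in ST2 differed from the response to SRA knockdown in 3T3-L1 in a direct test of the 2 differences (limma, Benjamini-Hochberg adjustment). The overexpression difference minus the knockdown difference, on the log2 scale, was -2.37 for Pclaf (adjusted p = 5.0e-04), -2.34 for Mcm5 (adjusted p = 1.6e-04), -1.85 for Rrm2 (adjusted p = 0.0016), -1.82 for Tk1 (adjusted p = 8.5e-04), -1.70 for Uhrf1 (adjusted p = 0.0013), -1.46 for Mcm6 (adjusted p = 0.0057) and -1.27 for Cdc6 (adjusted p = 0.0048). The 2 comparisons also differ in line, day and vector, and these cannot be told apart from the direction of the change in SRA.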

How the results depend on the processing

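The count of genes lower with SRA overexpression, 14, became 9 with the nested F classification, 9 with each line fitted alone and 25 with array weights, whose estimation stopped short of convergence. With single arrays left out it ranged from 8 to 18. The nested F classification and the replicate block each gave 1 gene, Pclaf, as higher with knockdown, against 0. The count of genes whose responses differ, 7, became 12 with a second quantile normalization, 11 with arrays centred on bright probe sets, 20 with array weights and 11 with the replicate block, and ranged from 7 to 15 with single arrays left out, 15 being without ST2 control replicate 2. With the replicate block, 18 genes were lower with overexpression. The ST2 numbers were not taken as pairs, although their same-number correlations were all above 0, and pairing in ST2 was not excluded. With the block in 3T3-L1 alone, chosen after seeing the data and with the spread still shared with ST2, the counts were 14, 0 and 7. Of the genes lower with overexpression, Brca1 passed in 9 of the 23 alternatives, Mcm4 and Clspn in 15, Chek1 in 16, Lig1 in 17, and Cdc6 and Timeless in 22; the cause was not tested. The median overexpression difference stayed between -0.48 and -0.25, and no gene that passed changed its direction under the alternatives run.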
